A study of Mus musculus with 16 samples.

Results

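The genes of mouse chromosome 13 were followed as 1 unit across 16 organoid lines of pancreatic ductal adenocarcinoma. Members were chosen by position and level: 410 of the 2501 genes that GENCODE mouse M21 places on chromosome 13 had a mean of at least 5 CPM, the count scaled to library size, over the 16 lines. They stood among 10152 positioned genes at that level, of which 9428 lay on the other 18 autosomes. Of the members, 399 were protein coding and 11 were of other types. Because that mean spans all lines, some members passed through 1 stage only: 13 were under 5 CPM by the mean of the 6 reference primaries described further on, and 12 by the mean of the metastasis lines. Foxf2 and Naip1 are among those that passed through lines where they are high. Slc35d2 and Tcstv1 lay just inside the limit, at means of 5.09 and 5.01 CPM, and Pcbd2 and Mxd3 just outside it, at 4.999 and 4.82 CPM.

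Organoids are epithelial cultures grown in a gel of basement membrane proteins. The lines came from 6 KPC mice of labelled strain C57BL6/J, a model in which Cre switches on tumor-driving alleles, a mutant Trp53 allele among them, in the pancreas, and the labels do not give the driver of Cre. Mouse 1 gave primary tumor line T3 and liver metastasis line M1, mouse 2 gave T6 and peritoneal line M3P, mouse 3 gave T19 and peritoneal line M6, and mouse 4 gave T23 and peritoneal line M10. Mouse 5 gave T34 with M15 from the diaphragm and M16 from the lung, and mouse 6 gave primary lines T69a and T69b with M28 from liver, M29 from diaphragm and M30 from ovary. Ages and treatments are not given, and all lines shared 1 medium with EGF, FGF-10, gastrin, Noggin, R-spondin and the TGF-beta receptor inhibitor A83-01. Each line was sequenced 1 time, and lines of 1 mouse are not independent animals. DNA copy number was not measured.

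Most genes make RNA roughly in proportion to the number of their copies, so that a chromosome lost or gained by a cell tends to shift the RNA of nearly all its genes by a similar step. Pancreatic cancers often carry such whole chromosome and arm changes. A single gene can depart from the step through its own regulation, which is why the median over many neighbours is read rather than any 1 gene. A median over a bulk culture cannot tell a loss in all cells from a deeper loss in some of them.

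Library totals ran from 24624420 to 49965492 expected counts, of which 132619 in M15 to 1785224 in T3 fell on the members. Reads of genes linked to ribosomal RNA took 72.7% of M15 and 29.9% of T6, and 0.0185% to 18.5% of the other lines. Before centring, the median of all genes lay at -1.77 in M15 and -0.51 in T6 against the reference on the log2 scale. T69a stood apart from the other 6 primary lines in its chromosome 13 median, and it was left out of the reference by the rule. Markers of pancreatic epithelium, all 8 detected, summed to 4445 to 6458 CPM in the primary lines. Their sum was 4577 to 8722 CPM in metastases. None of 6 fibroblast and 4 acinar markers reached 1 CPM in any line. Mesothelial markers, 2 of 4 reaching 1 CPM with Wt1 and Upk3b below it, summed to 0.619 to 5.25 CPM (median 0.894) in primaries and 0.505 to 7.21 CPM (median 4.67) in metastases, with 6.48 in M16 and 5.61 in M15. Immune markers summed to at most 5.33 CPM and endothelial markers to at most 1.74 CPM in any line, with 1 of 6 and 1 of 4 reaching 1 CPM. Of 4 hepatocyte markers 3 reached 1 CPM, and their sum ran from 6.77 to 112 CPM in the primaries but from 0.211 to 6.59 CPM in metastases. The part of the mesothelial and hepatocyte markers in the results was not tested.

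Chromosome 13 expression was lowest in 4 metastasis lines, from 3 mice. For each member, log2(CPM + 0.5) was compared with the mean of 6 primary lines, and each line was centred on the median of its genes on the other autosomes, so that 0 is the level of the rest of the genome and -1 a halving. The median over the 410 members was -0.73 in M15, -0.46 in M16, -0.41 in M3P and -0.33 in M1. The other 5 metastasis lines had medians of -0.17 in M30, -0.13 in M29, -0.09 in M10, -0.09 in M6 and -0.08 in M28. Among primary lines T69a had -0.23 (-0.14 when centred on the median of the autosome medians), and the other 6, which form the reference, ran from -0.05 in T34 to 0.04 in T3. Set against the other 5 reference lines, each of those 6 lay between -0.06 and 0.05. Thus at this setting all 9 metastasis lines lay below those 6 primary lines, M28, M6, M10, M29 and M30 by less than T69a did. Over the alternative settings described further on, M10 ran from -0.12 to -0.02 and T34 from -0.06 to -0.01. The ranges of M6, M28 and M29 also overlapped that of T34, while that of M30, from -0.20 to -0.10, did not. M15 is also the line with the most ribosomal RNA reads, whose part in its value was not tested. M16, from the same mouse and with 4.16% of such reads, was the next lowest.

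A replication-dependent histone cluster holds 51 of the members, and it moved apart from the rest of the chromosome, as described further on. With these genes left out, an alternative chosen after seeing the data, the medians over 359 members were -0.77 in M15, -0.55 in M16, -0.47 in M3P and -0.39 in M1. On the linear scale the typical member then stood at 58.8% of the reference in M15, 72.2% in M3P and 76.4% in M1. T69a came to -0.18, and the other 5 metastasis lines ran from -0.17 in M30 to -0.05 in M6. The quartiles of M15 were -1.01 and -0.43, so the middle of its distribution lay wholly below that of T34, the primary line of its mouse, at -0.18 and 0.13.

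**Figure D1:**
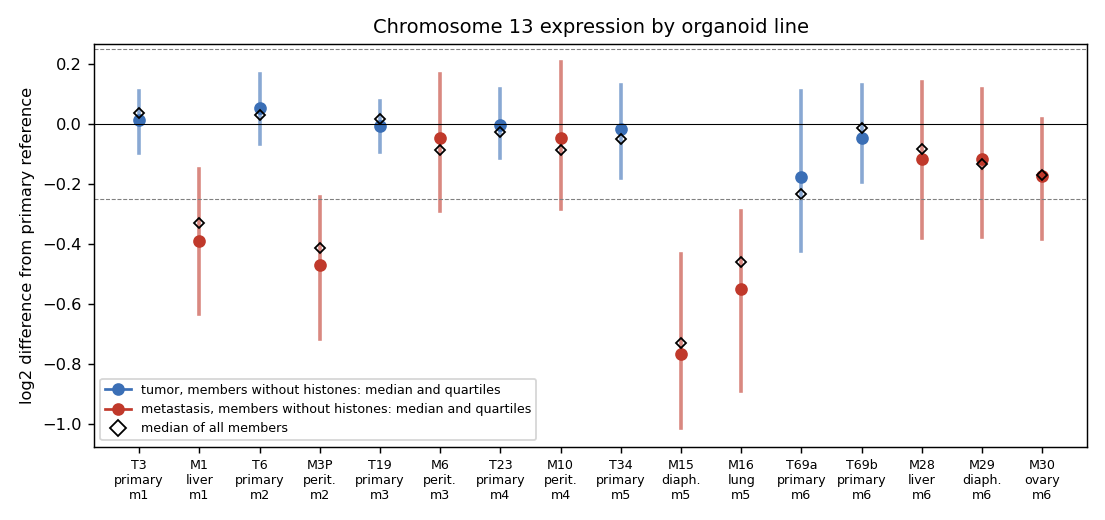
Median log2 difference of chromosome 13 genes from the primary reference (vertical axis) in each organoid line (horizontal axis, with site and mouse number), as filled points with quartile bars for 359 members without histones and open diamonds for all 410 members; dashed lines mark ±0.25. M1, M3P, M15 and M16 lie below -0.25, and the other 12 lines above it.

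Most members shared the low level. At or below -0.25 were 334 members (81.5%) in M15, where 29.2% of the genes of the other autosomes passed the same mark. The count was 292 (71.2%) in M16 against a background of 27.9%, 279 (68.0%) in M3P against 32.2%, and 237 (57.8%) in M1 against 28.5%. In T69a 194 members (47.3%) lay that low, where the background was 30.3%. These shares describe single lines, with no replicate and no test.

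Compared within mice, the difference between metastasis and primary lines was uneven. Metastases averaged -0.28 ± 0.22 (SD, n = 9) and primaries -0.03 ± 0.09 (SD, n = 7), a difference of -0.24. The difference was -0.54 in mouse 5, -0.44 in mouse 2 and -0.37 in mouse 1, but -0.10 in mouse 3, -0.06 in mouse 4 and -0.01 in mouse 6. Without histones it was -0.64, -0.52 and -0.40 in mice 5, 2 and 1, and -0.04, -0.04 and -0.03 in mice 3, 4 and 6. All 6 mice had the same sign, though the value of mouse 6 was close to 0 and T69a is among its primaries. The chromosome was chosen with these values known, so the signs are description and no test. The stage difference without M15 was -0.19.

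Lines from 1 site differed among themselves. Of 2 liver lines M1 had -0.33 and M28 -0.08, of 3 peritoneal lines M3P had -0.41 while M6 and M10 each had -0.09, and of 2 diaphragm lines M15 had -0.73 and M29 -0.13. Lung and ovary had 1 line each, M16 at -0.46 and M30 at -0.17. Both metastases of mouse 5 were low, and the 3 of mouse 6 averaged -0.13 ± 0.04 (SD, n = 3).

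In M15 and M16 chromosome 13 was the only autosome that moved past 0.25. The other 18 autosome medians of M15 ran from -0.07 (chromosome 16) to 0.11 (chromosome 10), and those of M16 from -0.10 (chromosome 14) to 0.12 (chromosome 15). In M1 chromosome 13 was the third lowest, above chromosome 14 at -0.39 and chromosome 10. In M3P it was also the third lowest, with chromosome 4 at -0.46, and chromosome 3 stood at 0.36. Chromosomes 7 and 10 of M3P, at -0.41 each, were nearly level with chromosome 13. T69a had chromosome 13 as its lowest autosome while chromosome 19 stood at 0.75, and in M28, M29 and M30 chromosome 19 stood at 0.76 to 0.81. In the 6 reference primaries no autosome median left the range of -0.06 to 0.14. Across the 9 metastasis lines chromosome 13 passed -0.25 in 4 and never rose past 0.25, as did chromosome 10, while chromosome 4 passed -0.25 in 3.

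**Figure D2:**
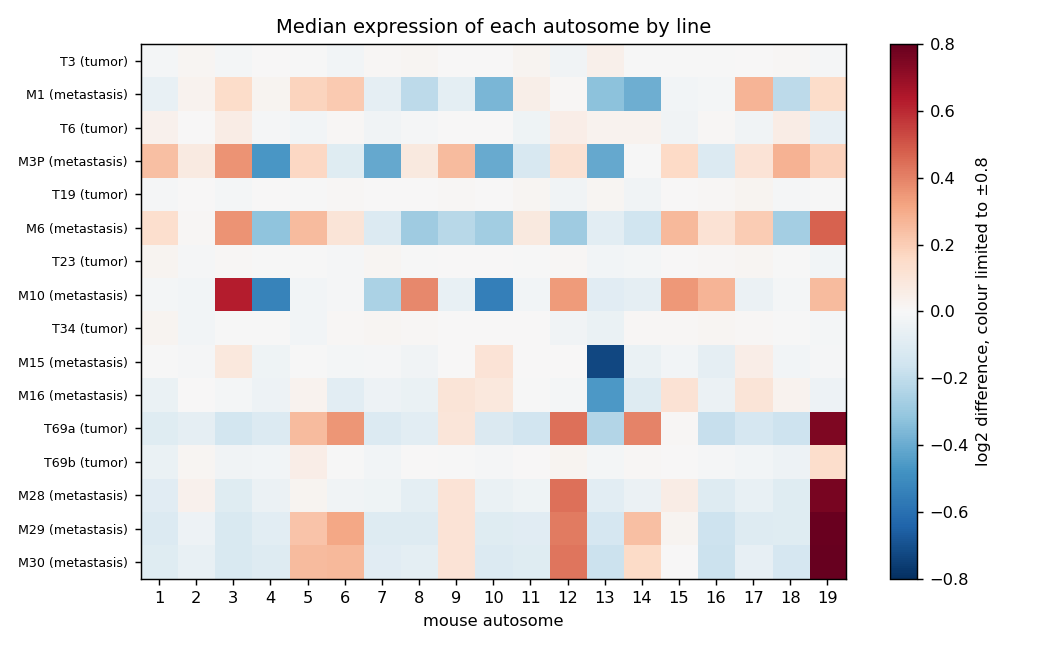
Median log2 difference from the primary reference (colour, limited to ±0.8) of the expressed genes of each of 19 autosomes (horizontal axis) in each of 16 lines (vertical axis). Chromosome 13 is the only strongly blue column in M15 and M16, with medians of -0.73 and -0.46, while M1 and M3P have further low chromosomes.

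Outside the histone cluster, the low level ran from end to end of the chromosome in M1, M3P, M15 and M16. Along the chromosome, 31 neighbouring members at a time gave a running median, and a line was called a whole shift where at least 90% of windows passed 0.25 in 1 direction, and a partial shift where an unbroken run of at least 15% of windows did. With all 410 members and 380 windows, only M15 was called whole, at 100% of windows. M16 had 86.1% of windows past -0.25, M3P 84.5%, M1 79.5% and T69a 33.4%, all 4 called partial losses, and T3 was called a partial gain with 15% of windows. Every edge of these partial calls fell at the histone cluster: in T3, M1, M16 and M3P the best pair of splits set apart 56 members from Hist1h2bl to Hist1h1a, chr13:21715763-23764406, and all 51 histone members lie in it. The stretch begins after Zkscan8, a zinc finger factor, and ends before Carmil1, a regulator of actin capping. In T69a the stretch ran from Zkscan8 to Carmil1.

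With the histones left out, 100% of 329 windows in M15 and in M16, 99.7% in M3P and 98.5% in M1 lay past -0.25, and no line was called partial. The highest of these windows stood at -0.59 in M15, -0.37 in M16, -0.22 in M3P and -0.21 in M1. T69a had 19.8% of windows there, M30 23.7% and T3 0%. Cut into 10 Mb bins, all 12 bins with at least 10 members were at or below -0.25 in each of M1, M3P, M15 and M16. The lowest bin was that from 20 to 30 Mb in M15 (-0.99), M16 (-0.91) and M1 (-0.54) and that from 10 to 20 Mb in M3P (-0.68). The highest was from 80 to 90 Mb in M15 (-0.56) and M16 (-0.34), from 110 to 120 Mb in M1 (-0.30), and the first bin in M3P (-0.30). Among these 12 bins, no reference primary had one past -0.25 or 0.25. The 3 members past 120 Mb fall in a bin too small for this count, and they are described further on.

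**Figure D3:**
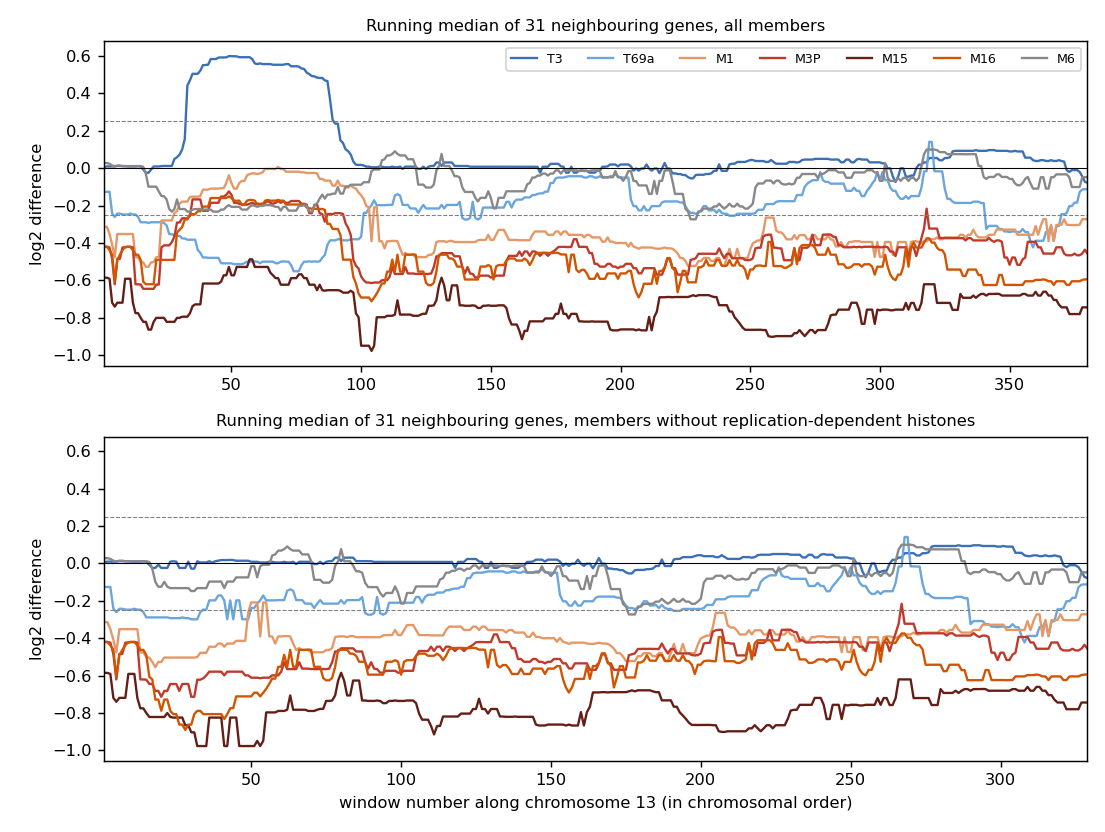
Running median of 31 neighbouring chromosome 13 genes (vertical axis, log2 difference from the primary reference) by window number in chromosomal order (horizontal axis) in 7 lines, for all members (top) and without histones (bottom); dashed lines mark ±0.25. The hump of T3 and the rise of M1, M3P and M16 toward 0 are the histone cluster, and in the lower panel the curves of M1, M3P, M15 and M16 stay low from end to end.

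Replication-dependent histone genes are switched on together as cells copy their DNA, and most of their messages end in a stem-loop instead of a poly(A) tail, so ribosomal RNA depletion keeps them in the library. The Hist1 cluster of chromosome 13 makes linker H1 and the core histones H2A, H2B, H3 and H4. Because these 51 members move together, the 250 bases before the start of 2 of the most abundant are shown, an H2B and an H4 gene, from RefSeq on GRCm38.p6. Both lie on the plus strand, Hist1h2bj at chr13:22042948-22043197 and Hist1h4m at chr13:21811496-21811745, and capitals mark every CCAAT and TATAAA on either strand.
Hist1h2bj: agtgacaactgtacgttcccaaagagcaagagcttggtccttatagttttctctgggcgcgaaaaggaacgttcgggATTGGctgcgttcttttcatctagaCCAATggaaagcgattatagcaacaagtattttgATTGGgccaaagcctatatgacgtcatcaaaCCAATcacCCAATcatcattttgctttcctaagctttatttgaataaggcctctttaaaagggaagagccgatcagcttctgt
Hist1h4m: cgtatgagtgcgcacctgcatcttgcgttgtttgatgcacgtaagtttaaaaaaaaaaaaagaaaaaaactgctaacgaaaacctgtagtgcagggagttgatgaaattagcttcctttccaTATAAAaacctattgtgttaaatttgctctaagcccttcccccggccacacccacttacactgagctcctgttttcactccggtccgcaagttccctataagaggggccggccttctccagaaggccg

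The Hist1h2bj window holds 5 CCAAT matches on both strands, and that of Hist1h4m holds a TATAAA. RefSeq promoters, here 250 bases before to 50 after the start, were found for 350 members, 48 of them Hist1h genes. Counting either strand, CCAAT was present in 40 of 48 histone promoters (83.3%), in 38.7% of 302 other member promoters and in 37.9% of all 27025 promoters in the table. TATAAA was present in 60.4% of the histone promoters, 4.97% of those of the other members and 14.2% of all. The H2B octamer ATTTGCAT was present in 4 of 13 H2B promoters (30.8%) and in 1.75% of all promoters. A match describes the letters only, and matches of 1 motif were not kept apart from those of another.

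Histone levels differed between primary lines as much as between stages. Hist1h4m, an H4 gene and the histone with the highest mean TPM, had 347 CPM in T3, 341 in T19, 273 in T69b, 239 in T23, 234 in T34, 199.8 in T69a and 146 in T6. In metastasis lines it had 305 CPM in M28, 284 in M29, 237 in M30, 221 in M1, 217 in M10, 209 in M6, 208 in M16, 198 in M3P and 121 in M15. The 2 stages overlap over most of their range, and M15 is the lowest of all. Hist1h2bj, the H2B gene shown above, had 348 CPM in T3 and 131 in T6, and 124 CPM in M15 against 254 in M28. Of the 51 histone members 0 passed the stage test (edgeR quasi-likelihood test, Benjamini-Hochberg adjusted), 0 had an unadjusted p under 0.05, and DESeq2 and limma also called 0. Their median log2 fold change was -0.08. Near-identical copies share reads in the authors' counting, so values of single histone genes are uncertain.

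Set against 13 histone genes that lie elsewhere, 9 of them on chromosome 3, 3 on chromosome 11 and 1 on chromosome 6, the cluster was low in 6 metastasis lines. In tumor lines the 2 sets had nearly equal medians: 0.58 and 0.57 in T3, 0.39 and 0.35 in T19, -0.59 and -0.62 in T6. In M15 the chromosome 13 histones had a median of -0.57 and the others 0.78, a gap of -1.35. The gap was -0.76 in M16, -0.73 in M3P and -0.53 in M1. It was also -0.78 in M10 and -0.51 in M6, whose chromosome 13 medians were near those of the primaries. Chromosome 3, which holds 9 of the 13 genes, was itself high in M10 (0.63), M6 (0.36) and M3P (0.36). The gap lay between -0.14 and 0.05 in the other lines. Over 16 lines the 2 sets of medians had Pearson's r = 0.39 and Spearman's rho = 0.35, and over the 9 metastasis lines r = -0.37 and rho = -0.18. Taken relative to the rest of their own chromosomes, they had r = 0.93 and rho = 0.93 over 16 lines, and r = 0.82 and rho = 0.88 over the 9 metastasis lines. On that footing the chromosome 13 and other histones still differed in level in M15 (0.20 and 0.70) and M16 (0.41 and 0.62). They also differed in M6 (-0.17 and 0.02) and M10 (-0.25 and -0.09), but were close in M1 (0.38 and 0.38) and M3P (0.35 and 0.32). These correlations describe lines that share mice and libraries, and no p is given.

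**Figure D4:**
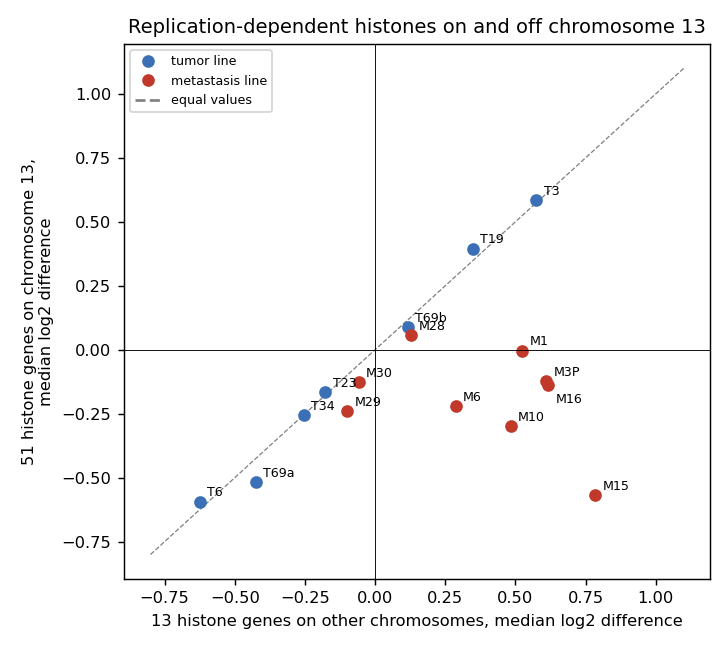
Median log2 difference from the primary reference of 51 histone genes on chromosome 13 (vertical axis) against that of 13 histone genes on other chromosomes (horizontal axis), 1 point a line, with the line of equal values. The 7 tumor lines lie along the line of equal values, and M15 lies farthest under it, at -0.57 against 0.78.

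Values of single, widely used genes follow. Rps23, a protein of the small ribosomal subunit, had 489 CPM in T3, 477 in T6, 448 in T19, 468 in T23, 503 in T34, 463 in T69a and 439 in T69b. In metastasis lines it had 236 CPM in M15, 292 in M16, 326 in M1, 340 in M3P, 401 in M6, 452 in M30, 477 in M28, 482 in M29 and 509.6 in M10. The 4 lowest values are those of the lines with a low chromosome 13, while M28, M29 and M30 lie within the primary range and M10 just above it. Cox7c, a subunit of cytochrome c oxidase, ran from 92.9 to 106 CPM in tumor lines and stood at 44.8 in M15, 59.6 in M16, 61.7 in M3P and 70.1 in M1, with 95.3 to 111 in the others. Gdi2, a regulator of Rab proteins and the first member on the chromosome, ran from 335 to 403 CPM in tumor lines and was at 208 in M15, 223 in M16, 244 in M3P and 281 in M1. For Gdi2 and Cox7c these 4 lines lie below every other line, as they do for Rps23. Stage log2 fold changes were -0.30 (SE 0.12, edgeR adjusted p = 0.117) for Rps23, -0.32 (SE 0.14, adjusted p = 0.137) for Cox7c and -0.35 (SE 0.11, adjusted p = 0.0563) for Gdi2, none past the threshold of 0.05.

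Prelid1, a mitochondrial lipid transfer protein, and Nsd1, a histone H3 methyltransferase, followed the same order. Nsd1 ran from 136 to 164 CPM in tumor lines and stood at 103 in M15, 116 in M16, 126 in M1 and 127 in M3P, with 136 to 163 in the other metastasis lines. Idi1, an isomerase of isoprenoid synthesis, overlapped between stages: it ran from 235 CPM in T34 to 457.5 in T69a among primaries, and from 231 in M15 to 453 in M29 among metastases. The annotated gene with the highest mean TPM, Gm44390, is a 144-base miRNA model beside Hist1h2bk, and its levels ran from 5.2 CPM in T34 to 13.5 CPM in T3.

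Grouped by role, every list had a median below -0.2 in M15 and below -0.4 in M16 except the histones of M16. The 24 members for cell cycle, replication and repair had medians of -0.94 in M15, -0.53 in M16, -0.45 in M3P and -0.24 in M1. Cks2, a subunit of cyclin-dependent kinase complexes, ran from 44.4 to 70.1 CPM in tumor lines and was at 23.9 in M15, 36.2 in M16, 42.2 in M3P and 48.7 in M1. Ccnb1, the mitotic cyclin B1, ran from 125 to 225 CPM in tumor lines and had 97.4 in M15 but 165 in M16, 167 in M3P and 184 in M1, inside that range. The 32 metabolic and mitochondrial members had -0.78 in M15, -0.84 in M16, -0.53 in M3P and -0.44 in M1. The 20 signalling and tumor genes had -0.55, -0.61, -0.55 and -0.41 in the same order, and the 12 adhesion, matrix and protease genes -0.94, -0.70, -0.51 and -0.39. In the same lines the 15 transcription and chromatin factors had -0.21, -0.44, -0.36 and -0.19. The lists were drawn up with earlier results of these data known.

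Death and innate immune genes, 8 members, stood high in T69a, M29 and M30. Their median was 0.81 in T69a, 0.69 in M30 and 0.58 in M29, while M16 had -0.78 and M15 -0.22. Naip1, a sensor of bacterial needle proteins, had 0.04 to 4.03 CPM in the 6 reference primaries, 14.1 in T69a, and 6.45 in M15 to 193 in M6 among metastasis lines. Its relative Naip2 did not share the rise in M16 and M1, at 8.97 and 19.2 CPM against 31.7 to 61.7 in tumor lines. Reads of Naip genes resemble each other, so the split between them is uncertain. Ripk1, a kinase of death receptor signalling, ran from 47.8 to 55.1 CPM in tumor lines and was at 32.7 in M15, 28.8 in M3P and 41.4 in M16, but at 55.9 in M1.

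The 16 Zfp genes were low beyond the 4 lines. KRAB zinc finger genes lie in clusters and mostly silence transposable elements. The 16 members were chosen by symbol alone, whether or not they are KRAB genes. The median of these 16 was -0.78 in M15, -0.77 in M1, -0.68 in M16 and -0.54 in M3P. It was also -0.51 in M28, -0.50 in M29, -0.37 in M6 and -0.30 in M30. Primary lines T69b and T69a, of the same mouse as M28, M29 and M30, had -0.33 and -0.27. The 214 Zfp genes on other chromosomes had -0.02 in M15 and -0.16 in M1, but -0.25 in M28, -0.30 in M29 and -0.28 in M6. In M16 and M3P the genes elsewhere had -0.14 and -0.08, and in M30, T69b and T69a they had -0.19, -0.16 and -0.24.

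By stage, more members fell than rose. The model held a term for each mouse, and 95 of 410 members passed an adjusted p of 0.05: 83 (20.2%) were lower and 12 (2.93%) higher in metastasis lines. Over all 15573 genes tested 9.92% were lower and 6.59% higher, so the members' share of lower calls stood above that background and their share of higher calls below it. The chromosome was chosen with its line medians known, so this excess of lower calls is description and no test. Taking each line's own chromosome medians out of the fit left 43 lower (10.5%) and 20 higher, against 9.77% and 6.39% of all genes, and all 43 were among the 83. The median log2 fold change of the members was -0.20, and 0.01 with chromosome medians taken out. Of the 83, 76 were lower in all 6 mice and 18 fell by at least 2-fold. The 83 were chosen by a test on these same mice, so this agreement is not separate support, and no such share was taken over all genes. The count of members was 35 to 140 with 1 line left out at a time, the highest without T69a. Leaving out T3, M1, T6, T19, M6, M10, T34, M15, M16 or M3P moved it by over 1.5 times, to between 35 and 58. It was 35 (8.54%) without T34, where 7.19% of all genes were called, and 58 (14.1%) without M15, against 13.6%. With T3, M1, T6, T19, M6, M10, M16 or M3P left out in turn, the members' share was 11.5% to 13.7%, against 8.18% to 11.7% of all genes. The count was 36 (8.78%) by limma on log2(TPM + 1), against 7.60% of all genes. With counts summed per mouse and stage it was 68 (16.6%) against 15.5%. Without both T6 and M15, the libraries with most ribosomal RNA reads, the count was 21 (5.12%) against 5.02%. T6 and T34 are the only primary lines of their mice. With a term for each mouse, leaving out T6 therefore also takes M3P out of the stage comparison, and leaving out T34 takes out M15 and M16. These settings thus compared fewer of the lines with a low chromosome 13. The members' share of all calls, higher and lower together, was thus near the background without T34, without M15 and without both T6 and M15. The same held by limma, summed per mouse and stage, and with chromosome medians taken out. Of lower calls alone, the members' share was 6.83% against 4.57% of all genes without T34, and 6.10% against 5.49% by limma. It was 12.2% against 7.17% without M15, and 13.7% against 8.14% summed per mouse and stage. It was 4.39% against 3.52% without both T6 and M15.

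The strongest fall was that of Dapk1, a death-associated kinase. It had 26.2 to 54.1 CPM in 6 tumor lines and 2.71 in T69a, against 0 in M10, 0.06 in M28, 0.13 in M16, 0.21 in M29, 0.51 in M30, 0.72 in M15, 1.05 in M6, 1.67 in M1 and 1.87 in M3P. The 2 groups do not overlap, though T69a comes near the metastasis lines. Its log2 fold change was -5.93 (SE 0.71, edgeR adjusted p = 0.000851), lower in 6 of 6 mice. Slc28a3, a nucleoside transporter, had 1.86 CPM in T69a and 7.82 to 70.9 in the other tumor lines, and 0 to 2.66 CPM in metastases, where M6 overlaps T69a (log2 fold change -5.36, SE 0.95, edgeR adjusted p = 0.0055). In M28, whose chromosome 13 median was -0.08, Dapk1 stood at -6.28 and Slc28a3 at -3.90 against the reference.

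Plk2, a stress-responsive kinase, had 107 to 144 CPM in 6 tumor lines and 41.7 in T69a, and 14.5 in M15 to 46.4 in M28. Map3k1, a kinase upstream of JNK, averaged 100.5 ± 27.3 CPM (SD, n = 7) among primaries and 47.7 ± 9.09 (SD, n = 9) among metastases, with no overlap, and fell by 1.07 on the log2 scale (SE 0.16, edgeR adjusted p = 0.00313). Polk, a translesion DNA polymerase, averaged 27.2 ± 7.64 and 11.1 ± 2.67 CPM, and Bphl, a hydrolase of amino acid esters, 22.8 ± 6.17 and 7.64 ± 2.81 CPM (SD, n = 7 and 9), also without overlap. Zinc finger factors Zfp322a, Zfp874a, Zkscan8 and Zscan26 fell by 0.88, 1.34, 0.94 and 0.76 on the log2 scale. These 10 genes, among them Dapk1 and Slc28a3, kept their direction in all 25 alternatives tried, and the calls of 9 held in each, Zscan26 missing in limma on log2(TPM + 1) (adjusted p = 0.0556). By list, 8 of 16 Zfp genes, 9 of 32 metabolic, 6 of 20 signalling, 4 of 24 cell cycle genes, 4 of 15 factors and 1 of 12 adhesion genes fell, against 20.2% of all members and 9.92% of all genes. With chromosome medians taken out these counts were 6 for Zfp, 4 for metabolic, 3 for signalling, 4 for cell cycle genes, 2 for factors and 1 for adhesion genes, against 10.5% of all members. In the other direction 2 signalling genes (Pde4d and Fst), 2 factors (Foxf2 and Gtf2h2), 1 metabolic gene (Srd5a1) and 1 of 8 death and innate immune genes (Naip1) rose.

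The 12 members that rose went against the chromosome. Agtpbp1, a carboxypeptidase that trims tubulin, had 13.5 to 17.9 CPM in the 6 reference primaries, 27.5 in T69a and 20.2 in M15 to 45.4 in M10 among metastasis lines. Only T69a lies among the metastasis values, and limma on log2(TPM + 1) did not call the gene (adjusted p = 0.195). In the edgeR fit the log2 fold change was 0.87 (SE 0.13, adjusted p = 0.00317), higher in 6 of 6 mice. Pde4d, a cAMP phosphodiesterase, had 4.22 to 12.2 CPM in the reference primaries, 32.6 in T69a and 19.6 to 35 in metastasis lines (log2 fold change 1.5, SE 0.31, edgeR adjusted p = 0.00982). Srd5a1, a steroid 5-alpha-reductase, had 17.1 to 24.6 CPM in the reference primaries, 64.9 in T69a and 34.8 to 63.2 in metastasis lines. In these 3 genes T69a lay with the metastasis lines.

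Gfod1 rose by 1.25 on the log2 scale (SE 0.23, edgeR adjusted p = 0.00597), from 4.43 ± 2.10 CPM (SD, n = 7) to 9.96 ± 3.09 (SD, n = 9). Gtf2h2, a subunit of the transcription and repair factor TFIIH, rose by 0.44 on that scale. Foxf2, a forkhead factor, was at 0 to 2.30 CPM in the reference primaries, 34.3 in T69a and from 0.40 in M1 and 1.23 in M16 to 46.1 in M30. Cdhr2, a cadherin of brush border microvilli, was at 1.29 to 21.8 CPM in the reference primaries, 211 in T69a and 19.2 to 208 in metastasis lines. Fst, which binds activins, and Gcnt4, a mucin glycosyltransferase, followed the same order with T69a high. Calls for Foxf2, Cdhr2, Fst and Gcnt4 were near the threshold (edgeR adjusted p = 0.0417, 0.0462, 0.0352 and 0.0397) and were missed in 14, 16, 14 and 15 of 25 alternatives, with 12, 13, 11 and 12 of the 16 lines left out in turn.

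**Figure D5:**
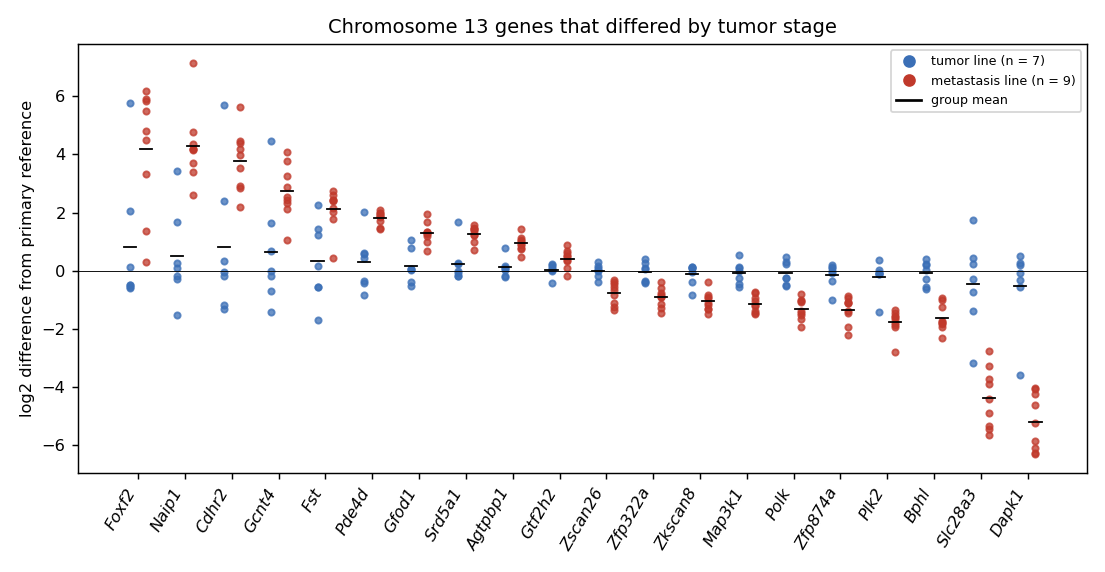
Log2 difference from the primary reference (vertical axis) of the 10 members with the lowest adjusted p in each direction of the stage test (horizontal axis), 1 point a line and black bars for group means, in tumor (n = 7) and metastasis (n = 9) lines. The single tumor point near -3.57 for Dapk1 and that near 5.78 for Foxf2 are T69a.

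Sox4, a developmental transcription factor, lay farthest from the chromosome among the factors in M1 and M16. It had 38.1 to 121 CPM in the reference primaries, 4.41 in T69a, 0.94 in M28, 1.23 in M29, 2.65 in M16, 3.78 in M30, 7.17 in M15, 10.6 in M6, 13.1 in M3P, 15 in M1 and 36.3 in M10. Akr1c14, an aldo-keto reductase of steroids, had 6.21 to 39.7 CPM in the reference primaries, 1.40 in T69a and 0 in M1 and M15 to 2.58 in M30. Integrin alpha 1 (Itga1) stood at 0.95 CPM in M16 and 154 in M10 against 16.7 to 31.5 in tumor lines. Fbp2, a gluconeogenic enzyme, had 0.12 to 9.24 CPM in the reference primaries, 51.4 in T69a and 0.23 in M16 to 65.1 in M29.

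No member passed the tests of site or mouse. Among metastasis lines, the edgeR F test of site called 0 of 410 members and 0% of all genes, with 3 members (0.732%) at an unadjusted p under 0.05 against 1.71% of all genes. The members with the lowest p were Nedd9, a docking protein of focal adhesions (unadjusted p = 0.0122, adjusted p = 0.9999), and Itga1 (unadjusted p = 0.0292). The edgeR F test of mouse called 0 members and 0.154% of all genes, with 40 members (9.76%) at an unadjusted p under 0.05 against 17.1% of all genes. The lowest were 1 of 2 overlapping models of Nnt, a mitochondrial transhydrogenase (unadjusted p = 0.00447, adjusted p = 0.146) and Gcnt4 (unadjusted p = 0.00499, adjusted p = 0.152). Lung and ovary had 1 line each, liver and diaphragm 2 and peritoneum 3, which limits the test of site.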

How the data were processed

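RNA of 16 organoid lines was measured, 1 library each. Per the labels' protocols, total RNA was depleted of ribosomal RNA and made into stranded libraries. Per the submitters' processing notes, tools were FastQC 0.11.8, STAR 2.6.0c and RSEM 1.3.1 and the build GRCm38.p6. The authors deposited expected counts, estimates that need not be whole, and TPM per gene. Strand settings of the counting are not given in the sources used here. Isoform tables were not used.

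Of 55487 identifiers 55394 were given positions from GENCODE M21. CPM is the expected count scaled to the library total. CPM in single-gene sentences is on TMM-scaled totals. Dosage values are log2(CPM + 0.5) less the mean of the primary lines without T69a, centred per line on the other autosomes. Splits into 3 stretches of at least 15 members gave edges.

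Expected counts were rounded for edgeR 4.0.16 (R 4.3.3) quasi-likelihood tests with TMM factors, filterByExpr by stage and terms for mouse and stage. Site and mouse were F tests of their terms. Benjamini-Hochberg adjustment covered all 15573 genes. DESeq2 1.42.0 and limma 3.58.1 on log2(TPM + 1) were alternatives. The mouse labels pair the lines: deviations from stage means correlated at 0.30 on average over 17 pairs of 1 mouse and -0.12 over 103 other pairs. Most of the 17 pairs come from the mouse of T69a and T69b, so that average says little of the other mice.

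Named members were the 12 with the highest mean TPM, the 10 with the lowest adjusted p in each direction by stage and 5 each by site and mouse, up to 4 per list, the ends of the chromosome and edges, and the farthest member of a list in each low line. Members and lists were chosen with earlier results of these data known. Promoters were matched by symbol or older symbol and position. Scripts were tested on simulated data. No line was replicated, so p-values beyond the 6 mice measure the spread between lines.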

Additional observations from a re-analysis of the deposited data

Results flagged for a closer look

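Sets of 7 tumor and 9 metastasis lines were searched for a highest or lowest line whose gap to its neighbour took an unusually large part of the range (Dixon's test), in 62 sets. Chance would mark about 1 set in 20 if sets were independent and unselected, and 11 were marked. The sets share lines, and the marked genes were named by the stage test on these lines, so the count is no test against chance. In tumor lines T69a was the line apart in 7 of them. T69a had already been left out of the reference by the rule, so its chromosome 13 medians are no separate finding. Its chromosome 13 median of -0.23 stood below the others, which ran from -0.05 to 0.04, and that without histones of -0.18 below a range of -0.04 to 0.05. Against the reference, T69a had a log2 difference of 0.79 in Agtpbp1, 1.67 in Srd5a1, 5.78 in Foxf2, -3.57 in Dapk1 and -1.43 in Plk2, each on the side of the metastasis lines. T34 had -0.43 in Gtf2h2, where the other tumor lines ran from 0.01 to 0.24.

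In metastasis lines M6 had 7.13 in Naip1, above a range of 2.61 to 4.77. M1 had 0.43 in Fst, below a range of 1.79 to 2.74. M15 had -2.79 in Plk2, below a range of -1.94 to -1.35, and M15 is also the line with the lowest chromosome 13 median.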

How the results depend on the processing

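Members called by stage numbered 95 (23.2%, against 16.5% of all genes). They were 63 (15.4% against 16.2%) with chromosome medians taken out, 36 by limma on TPM and 21 without T6 and M15. With 1 line left out at a time they were 35 (8.54% against 7.19%) to 140 (34.1% against 24.7%). The 21 were 5.12% of members against 5.02% of all genes, and the 36 were 8.78% against 7.60%. The members' share of calls in both directions together was near the background there. The members' share of lower calls alone was 4.39% against 3.52% without T6 and M15, and 6.10% against 5.49% by limma. Leaving out T6 also takes M3P out of the stage comparison, since T6 is the only primary line of its mouse. With counts summed per mouse and stage, 68 members were called (16.6% against 15.5% of all genes), and 13.7% against 8.14% were lower. With no replicate block, 87 members were called, and counts of members lay within 1.5 times of 95 there and under the other settings. Members called by mouse were 4 with no filter and 0 to 1 with 1 line left out, and by site 0 in each setting. The 20 genes named by stage kept their direction under all 25 settings. The difference between stage medians ran from -0.46 without centring on the other autosomes to -0.19, and from -0.28 to -0.19 with 1 line left out.

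Of whole shifts there was 1 (M15), and 4 without centring, 2 when centred on autosome medians, against the own primary or without T6 and M15, 3 at a shift of 0.15, and 0 to 3 with 1 line left out, the 0 being without M15 itself. Of partial shifts there were 5, and 8 at a mean CPM of 20 or more, 3 against the own primary, 10 at a shift of 0.15 and 3 to 7 with 1 line left out. Without the histone genes, an alternative added after seeing the data, 4 were whole and 0 partial, also with autosome medians, TPM or a mean CPM of 20 or more. At a shift of 0.35 these were 3 and 1, and at 0.15 they were 4 and 2. The median of M15 lay between -0.92 and -0.66 in 20 settings that centre or scale the library (-2.50 on uncentred library totals), and that of M1 between -0.43 and -0.28 in 21. That of T69a, -0.23, ran from -0.26 to -0.09, with -0.14 when centred on autosome medians and -0.09 with histones left out as well. Depth limits M15 most, with 132619 counts over the members.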

Other observations

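At the far end of the chromosome 3 members were high in M15 and M16, though not in M3P. Gm20767, Gm21818 and Gm21762, past 120 Mb, are neighbouring predicted genes that resemble each other, so reads may be shared among them. Gm21762, the last member, had 26.2 CPM in M16, 14.8 in M6, 13.5 in M15, 11.3 in M30, 11 in T69b, 7.46 in M29, 6.10 in M1 and 5.45 in T69a. In T3, T6, T19, T23, T34, M28, M3P and M10 it had 1.06 to 2.64 CPM. None passed the stage test, with adjusted p values of 0.45 to 0.47 (edgeR). They were chosen after their values were seen.

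Members of low and high expression and of short and long genes were all low in M1, M3P, M15 and M16, to differing degrees. In M15, without histones, the 120 least expressed members by mean TPM had a median of -0.69, the 119 in the middle -0.81 and the 120 most expressed -0.82. Ordered by gene length, the 120 shortest had -0.86, the middle 119 -0.78 and the 120 longest -0.66. In M3P the sets by mean TPM had -0.47, -0.49 and -0.44, in M16 -0.68, -0.49 and -0.46, and in M1 -0.50, -0.36 and -0.36. In M28 and M29, whose chromosome medians were -0.08 and -0.13, the 120 least expressed members had -0.28 and -0.31 and the 120 most expressed 0.01 in both.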
